A study of Mus musculus with 8 samples.

Results

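The genes described here are 10 members of the Lgr receptor and stem cell Wnt target group: the receptors Lgr4, Lgr5 and Lgr6, the membrane ubiquitin ligases Rnf43 and Znrf3, the scaffold gene Axin2, and Ascl2, Olfm4, Smoc2 and Sox9. They were taken by symbol from a table of 23393 gene symbols, and all 10 were found in it. The table gives FPKM, a fragment count scaled by the length of the transcript and the size of the library, from poly(A) RNA of gut epithelium of E16.5 mouse embryos. The 8 libraries came in 4 tissues with 2 libraries each: colon, proximal small intestine (written here as intestine), hindstomach (the glandular part of the rodent stomach) and forestomach (its squamous part). All embryos carried ShhCre and a R26YFP reporter allele, so Cre was driven from the Sonic hedgehog gene that gut epithelium expresses, and no group was treated or lacked these alleles. Forestomach epithelium was loosened with Dispase and peeled off by hand. EDTA and shaking released the epithelium of the other 3 tissues, with a more concentrated solution for hindstomach than for intestine and colon. Effects of tissue and of the way of isolation cannot be told apart in comparisons with the forestomach, nor effects of tissue and of EDTA concentration in those of intestine or colon with hindstomach. Whether the 2 libraries of a tissue stem from different embryos is not in the labels, and every p-value here covers the spread between libraries alone, which may be technical.

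In Wnt signaling, ligands bind Frizzled and Lrp receptors at the cell surface, beta-catenin is then spared from a destruction complex that holds Axin and Apc, and it enters the nucleus to act with TCF and LEF factors. Rnf43 and Znrf3 remove Frizzled receptors from the membrane, and R-spondins bound to Lgr receptors take these ligases away, which raises the response to Wnt. In the adult mouse intestine, Lgr5, Ascl2, Olfm4 and Smoc2 mark the columnar stem cells at the crypt base, Axin2, Rnf43 and Znrf3 are feedback targets of the same pathway, and Sox9 marks crypt progenitors. In the adult mouse stomach, Lgr5 marks cells at the base of pyloric glands.

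In the GENCODE M21 annotation of GRCm38 the 10 genes are all protein coding, and 4 of them lie on chromosome 11: Znrf3 at chr11:5276324-5444847 on the minus strand, and Rnf43 at chr11:87662722-87735539, Axin2 at chr11:108920349-108950783 and Sox9 at chr11:112782224-112787760 on the plus strand. Lgr5 lies at chr10:115450311-115587780 on the minus strand, Lgr4 at chr2:109917647-110014257 on the plus strand and Lgr6 at chr1:134983301-135105276 on the minus strand. Ascl2 lies at chr7:142966829-142969264 on the minus strand, Olfm4 at chr14:79984081-80023139 on the plus strand and Smoc2 at chr17:14279506-14404790 on the plus strand. Annotated antisense genes overlap Smoc2 and Axin2, and the sources used here do not give the strand setting of the counting, so reads of these partners cannot be told apart from those of Smoc2 and Axin2. The same holds for Olfm4, which the lincRNA gene Gm6999 overlaps on the same strand, and for Rnf43. Rnf43 is overlapped by 1110028F11Rik on the same strand, with at most 0.550 FPKM, and by the snRNA gene Gm25968 on the opposite strand. Lgr5 shares its locus with A930009A15Rik on the opposite strand, which had at most 0.0264 FPKM in any library.

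RefSeq promoter windows of GRCm38.p6, which run from 250 bases before to 50 bases after a transcription start, were at hand for 6 members in 7 windows (Lgr4, Lgr6, Ascl2, Olfm4, Axin2, and Rnf43 with 2 windows). Those of Olfm4, the tested member with the widest range of levels, Axin2, the classic feedback target, and Lgr4, the member with the narrowest range, are printed 5′ to 3′ on the gene's strand, all plus strand here, with motif matches in capitals. They lie at chr14:80000052-80000351, chr11:108920099-108920398 and chr2:109917397-109917696.
Olfm4: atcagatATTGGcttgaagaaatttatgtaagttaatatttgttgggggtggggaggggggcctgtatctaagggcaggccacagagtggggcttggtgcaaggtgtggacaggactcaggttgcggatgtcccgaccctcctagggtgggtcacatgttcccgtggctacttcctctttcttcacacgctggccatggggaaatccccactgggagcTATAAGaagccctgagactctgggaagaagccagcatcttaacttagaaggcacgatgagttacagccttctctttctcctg
Axin2: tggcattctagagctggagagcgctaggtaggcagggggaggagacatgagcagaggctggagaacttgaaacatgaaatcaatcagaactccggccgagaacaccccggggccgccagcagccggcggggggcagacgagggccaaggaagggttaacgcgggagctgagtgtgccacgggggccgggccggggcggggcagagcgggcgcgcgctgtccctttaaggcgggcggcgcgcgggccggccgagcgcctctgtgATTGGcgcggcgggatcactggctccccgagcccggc
Lgr4: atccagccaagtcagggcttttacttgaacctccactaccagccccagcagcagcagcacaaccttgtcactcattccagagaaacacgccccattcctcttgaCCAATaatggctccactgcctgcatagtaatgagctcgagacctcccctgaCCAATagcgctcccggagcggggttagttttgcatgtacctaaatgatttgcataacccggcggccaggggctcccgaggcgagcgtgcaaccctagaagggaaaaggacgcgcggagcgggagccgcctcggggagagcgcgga
The motifs were chosen after the sequences had been seen. The Olfm4 window holds the TATA box form TATAAG at position -32 from the start. It also holds ATTGG, the reverse complement of the CCAAT box, at position -243. Of 32851 promoter windows of the same length, 12.3% hold TATAAA or TATAAG as printed and 37.4% hold CCAAT on either strand. Lgr4 holds CCAAT at positions -146 and -95, and Axin2 holds ATTGG at position 14 after the start. The TCF/LEF core CTTTGAT or CTTTGAA, searched on both strands, is in 8.65% of all windows and in 0 of the 7 member windows, which says only that these letters are not in these windows.

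Summed FPKM ran from 328490 to 378497 in 7 libraries and reached 545227 in the library labelled forestomach replicate 1. There the 10 most abundant genes held 52.5% of the sum, against 6.27% to 17.4% in the other libraries. That library held 97970 FPKM of Pgc (pepsinogen C) and 27490 FPKM of Gkn1 (gastrokine 1), both made by glandular stomach. In forestomach replicate 2 these were at 2.55 and 0.0144 FPKM. Of the 8 gastric gland markers only Cym went the other way, at 8.49 FPKM against 2310 FPKM in forestomach replicate 2. Summed, the 8 markers reached 165900 FPKM in that library, while forestomach replicate 2 still held 2369 FPKM. The 7 squamous markers (Krt5, Krt14, Krt13, Krt4, Trp63, Lor and Krt10) summed to 1258 FPKM in that library. In forestomach replicate 2 they summed to 35070 FPKM. Across the 12894 genes tested, the 2 forestomach libraries correlated at r = 0.713, while the pairs of the other tissues correlated at 0.959 to 0.984 (across genes, which are not independent replicates). Member results are therefore given with all libraries and, where the calls differ, without this library. All 6 pan-epithelial markers (Epcam, Cdh1, Krt8, Krt18, Krt19 and Cldn7) were at or above 1 FPKM in every library, but at unequal levels. Epcam (83.2 and 146 FPKM) and Cldn7 (2.21 and 33.9 FPKM) were lower in both forestomach libraries than in all others. This did not hold for Cdh1, Krt8, Krt18 and Krt19. The intestinal factor Cdx2 was at 112 and 91.1 FPKM in colon, 133 and 135 FPKM in intestine, 24.4 and 16.6 FPKM in hindstomach and at most 0.0273 FPKM in forestomach.

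Lgr5 was higher in colon and hindstomach than in forestomach, and Olfm4 was higher in intestine and hindstomach than in forestomach, and these were the member differences called with all 8 libraries. A call needed a Benjamini-Hochberg adjusted p under 0.05 within a comparison, from limma on log2(FPKM + 1), and at least a 2-fold change on that scale. Of the 9 members tested, 1 was called in colon minus forestomach, where 11.6% of all tested genes were called, 1 in intestine minus forestomach (17.1% of all genes), and 2 in hindstomach minus forestomach (5.59% of all genes). Among the tissues other than forestomach, limma called 0 members in intestine minus hindstomach (5.03% of all genes called, 2 members at an unadjusted p under 0.05), 0 in colon minus hindstomach (1.5% of all genes, 3 members) and 0 in colon minus intestine (0.38% of all genes, 0 members). In the mean of colon and intestine minus the mean of hindstomach and forestomach, called bowel minus stomach here, 0 members were called (10.6% of all genes, 1 member at an unadjusted p under 0.05). A p that misses the threshold does not show that levels were equal. The comparisons with forestomach share its 2 libraries, so they are not separate evidence.

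Without the library labelled forestomach replicate 1, more members and more genes of all kinds were called. In hindstomach minus forestomach there were then 5 member calls (20.9% of all genes), in intestine minus forestomach 2 (27.9%), in colon minus forestomach 3 (25.6%), and in bowel minus stomach, intestine minus hindstomach and colon minus hindstomach 1 each (17.1%, 17.4% and 7.59%). Colon minus intestine stayed at 0 member calls (2.54% of all genes called, 6 members at an unadjusted p under 0.05). In this fit the lone forestomach library is assumed to vary like the other tissues. The median of all genes was not at 0 in several comparisons: it was 0.39 for hindstomach minus forestomach, 0.41 for colon minus forestomach, 0.11 for intestine minus forestomach, -0.25 for intestine minus hindstomach and 0.23 for colon minus intestine on the log2 scale. Member values given in the text are read beside these shifts.

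**Figure D1:**
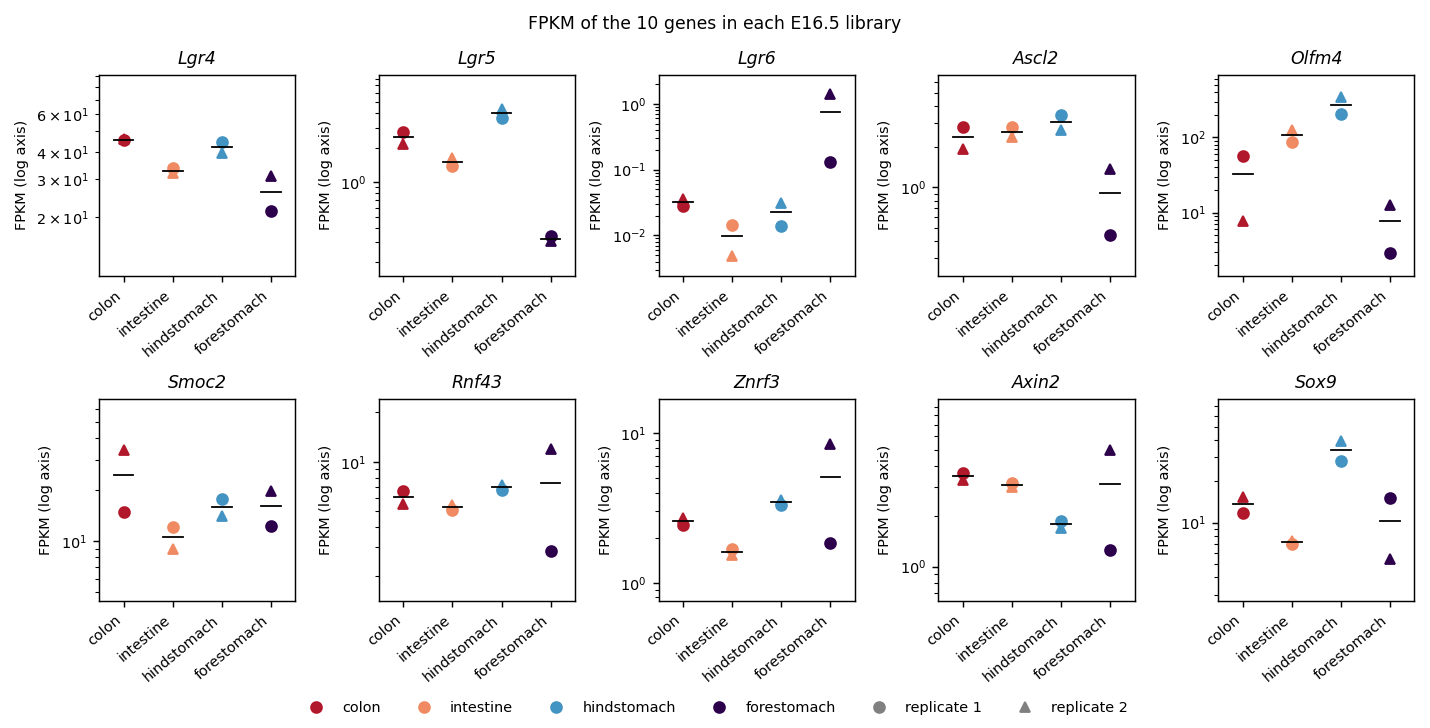
FPKM of each of the 10 genes in the 8 libraries, on log axes. Colors give the tissue (colon, intestine, hindstomach, forestomach from left to right), circles and triangles replicates 1 and 2, and the black bar the mean of the 2 libraries. Lgr5 was lowest in the 2 forestomach libraries, at 0.339 and 0.304 FPKM, while Lgr6, Znrf3 and Olfm4 spread widest between them.

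Among the receptors, Lgr4 was by far the most abundant and varied least, Lgr5 was low, highest in hindstomach and lowest in forestomach, and Lgr6 was near absent outside one forestomach library. Lgr4, a broadly expressed R-spondin receptor, was at 45.4 and 45.7 FPKM in colon, 33.7 and 31.9 FPKM in intestine, 44.4 and 39.7 FPKM in hindstomach and 21.3 and 30.9 FPKM in forestomach. The 4 pairs of libraries did not overlap, and the order was colon, hindstomach, intestine, forestomach, but neighbours in this order had adjusted p-values of 0.944, 0.359 and 0.32 (limma). The largest difference, colon minus forestomach, was 0.80 ± 0.21 (SE) on the log2 scale with an adjusted p of 0.0581. It was called in 1 of the 18 alternative fits, the one that left out forestomach replicate 2, at 1.06 with an adjusted p of 0.00338, over a range of 0.00338 to 0.571 in these fits.

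Lgr5, the R-spondin receptor that marks crypt base stem cells, was at 2.74 and 2.18 FPKM in colon, 1.39 and 1.62 FPKM in intestine, 3.61 and 4.36 FPKM in hindstomach and 0.339 and 0.304 FPKM in forestomach. Its order was hindstomach, colon, intestine, forestomach, with no overlap between the pairs. Its 2 forestomach libraries differed by a factor of 1.12, while that factor was 1.45 or more for every other member. Lgr5 was higher in hindstomach than in forestomach by 1.91 ± 0.21 on the log2 scale (adjusted p = 0.00862, limma) and higher in colon than in forestomach by 1.38 ± 0.21 (adjusted p = 0.0116). In intestine it exceeded forestomach by 0.92 ± 0.21 (adjusted p = 0.0282), which is under 2-fold on this scale and so was not called. With a pseudocount of 0.1 instead of 1, the same difference was 1.92 with an adjusted p of 0.0111 and was called, since log2(FPKM + 1) compresses low values.

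The Lgr5 calls depend on the libraries and on the fit. Hindstomach minus forestomach was no longer called without hindstomach replicate 1 (2.02, adjusted p = 0.0888) or without hindstomach replicate 2 (1.80, adjusted p = 0.103), and colon minus forestomach was no longer called without colon replicate 1 (1.27, adjusted p = 0.0812). Leaving out either forestomach library kept both calls, with adjusted p-values of 0.00257 and 0.00445 for hindstomach and 0.00598 and 0.0058 for colon. Both calls also ended with quantile normalization, for hindstomach at 1.47 (adjusted p = 0.0511) and for colon at 0.78 (adjusted p = 0.175), and when the fit held only the tissues compared (adjusted p = 0.0942 and 0.155). Over all alternatives the adjusted p ran from 0.00257 to 0.103 for hindstomach and from 0.0058 to 0.175 for colon. Lgr5 was lower in intestine than in hindstomach by 0.99 on the log2 scale (log2 fold change -0.99 ± 0.21, adjusted p = 0.0524), beside a shift of -0.25 over all genes. This difference was not called in any of its 19 alternatives, whose adjusted p ran from 0.012 to 0.358.

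The 15 cell cycle markers (among them Mki67, Top2a and Pcna) summed to 382 and 452 FPKM in colon, 370 and 308 FPKM in intestine, 512 and 407 FPKM in hindstomach, and 92.4 and 280.3 FPKM in forestomach. The sums were lower in both forestomach libraries than in the others. Of the 15 genes, limma called 1 in colon minus forestomach (Ccnb2, 1.52, adjusted p = 0.0442), beside 11.6% of all genes, and 0 in intestine or hindstomach minus forestomach (5 and 10 at an unadjusted p under 0.05). Without forestomach replicate 1 the median log2 difference of the 15 genes from forestomach was 0.55, 0.20 and 0.52 for hindstomach, intestine and colon. Over all tested genes it was 0.34, 0.046 and 0.31. All 15 were at or above 1 FPKM in every library, and their part in the Lgr5 result was not tested. In bulk tissue, fewer cells of a type and less RNA per cell cannot be told apart.

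Lgr6, the family member known from skin and other surface epithelia, had 0.0280 and 0.0354 FPKM in colon, 0.0145 and 0.00488 FPKM in intestine, 0.0140 and 0.0311 FPKM in hindstomach, and 0.133 and 1.39 FPKM in forestomach. Only forestomach replicate 2 reached 1 FPKM, so the gene missed the filter of at least 1 FPKM in at least 2 libraries and was not tested. The 2 forestomach libraries were the highest of the 8 but differed 10.5-fold from each other, in the direction of the squamous marker sums. In a fit with no filter its adjusted p-values against forestomach were 0.291 for hindstomach, 0.266 for intestine and 0.263 for colon, over log2 differences of -0.69, -0.70 and -0.67.

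Seen as shares of the summed FPKM of the 3 receptors, Lgr4 made up 94.2% and 95.4% in colon, 96.0% and 95.2% in intestine, 92.5% and 90.0% in hindstomach, and 97.8% and 94.8% in forestomach. Lgr5 held 5.69% and 4.54% in colon, 3.96% and 4.83% in intestine, 7.53% and 9.90% in hindstomach, and 1.56% and 0.933% in forestomach. Lgr6 held 0.608% and 4.27% in forestomach and at most 0.0738% elsewhere. Hence in forestomach replicate 2 the second receptor by level was Lgr6, and in the other 7 libraries it was Lgr5. The ratio of Lgr4 to Lgr5 was 16.6 and 21.0 in colon, 24.3 and 19.7 in intestine, 12.3 and 9.10 in hindstomach, and 62.9 and 102 in forestomach.

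The ligases that Lgr receptors counteract were present in all tissues and differed most between the 2 forestomach libraries. Rnf43 was at 6.63 and 5.50 FPKM in colon, 5.10 and 5.42 FPKM in intestine, 6.72 and 7.22 FPKM in hindstomach, and 2.85 and 12.01 FPKM in forestomach. Znrf3 was at 2.43 and 2.72 FPKM in colon, 1.69 and 1.52 FPKM in intestine, 3.33 and 3.58 FPKM in hindstomach, and 1.83 and 8.43 FPKM in forestomach. Forestomach replicate 2 held the highest value of all 8 libraries for both genes. Among the other 6 libraries both genes kept the order hindstomach, colon, intestine with no overlap between the pairs, and their largest ratios between 2 libraries of a tissue there were 1.21 for Rnf43 and 1.12 for Znrf3.

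With all libraries, neither ligase was called in any comparison, and for colon, intestine and hindstomach the log2 differences from forestomach were -0.0075, -0.18 and 0.17 for Rnf43 (SE 0.54) and -0.53, -0.99 and -0.21 for Znrf3 (SE 0.53). Against forestomach replicate 2 alone, Znrf3 fell in hindstomach (-1.08, adjusted p = 0.00792), intestine (-1.85, adjusted p = 0.001) and colon (-1.40, adjusted p = 0.00306), and Rnf43 fell in intestine (-1.06, adjusted p = 0.00549). Against the library labelled forestomach replicate 1 alone, Rnf43 rose in hindstomach (1.05, adjusted p = 0.00874), and the Znrf3 differences were 0.65, -0.12 and 0.34 for hindstomach, intestine and colon with adjusted p-values of 0.0322, 0.605 and 0.168, all under 2-fold. In these fits the sign of the difference from forestomach changed with the forestomach library for Rnf43 in all 3 tissues and for Znrf3 in hindstomach and colon, while that of Znrf3 in intestine was negative in both. Over all alternatives the adjusted p for Znrf3 ran from 0.0024 to 0.913 in hindstomach minus forestomach, from 0.000579 to 0.605 in intestine minus forestomach and from 0.00101 to 0.872 in colon minus forestomach. For Rnf43 it ran from 0.00874 to 0.944 in hindstomach minus forestomach and from 0.00549 to 0.936 in intestine minus forestomach.

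Axin2, the scaffold gene that a wide range of Wnt-responding cells induce, was at 3.63 and 3.27 FPKM in colon, 3.14 and 2.99 FPKM in intestine, 1.88 and 1.71 FPKM in hindstomach, and 1.26 and 4.99 FPKM in forestomach. Hindstomach was thus lowest of the 3 tissues whose pairs agreed, and the forestomach libraries were at both ends of the range. The differences were 0.54 ± 0.44 for intestine minus hindstomach (adjusted p = 0.488, limma) and 0.67 ± 0.44 for colon minus hindstomach (adjusted p = 0.668). When the library labelled forestomach replicate 1 was left out they kept their size with smaller standard errors, 0.54 ± 0.14 (adjusted p = 0.0357) and 0.67 ± 0.14 (adjusted p = 0.0401), still under 2-fold. In the same fit Axin2 fell in hindstomach minus forestomach, at -1.10 ± 0.17 (adjusted p = 0.00739), and without forestomach replicate 2 the difference was 0.31 (adjusted p = 0.196), over a range of 0.00412 to 0.878 in all alternatives.

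Axin1, the constitutive paralog, was more abundant than Axin2 in every library. The ratio of Axin2 to Axin1 FPKM was 0.182 and 0.149 in colon, 0.150 and 0.168 in intestine, 0.0793 and 0.0800 in hindstomach, and 0.115 and 0.205 in forestomach. The hindstomach pair was below all other libraries. The ratio of Rnf43 to Znrf3 was 2.72 and 2.02 in colon, 3.01 and 3.56 in intestine, 2.02 and 2.02 in hindstomach, and 1.56 and 1.43 in forestomach. Ratios within a library do not depend on its scaling, and here the forestomach pair, so far apart in the levels of both ligases, differed by less than the colon pair.

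**Figure D2:**
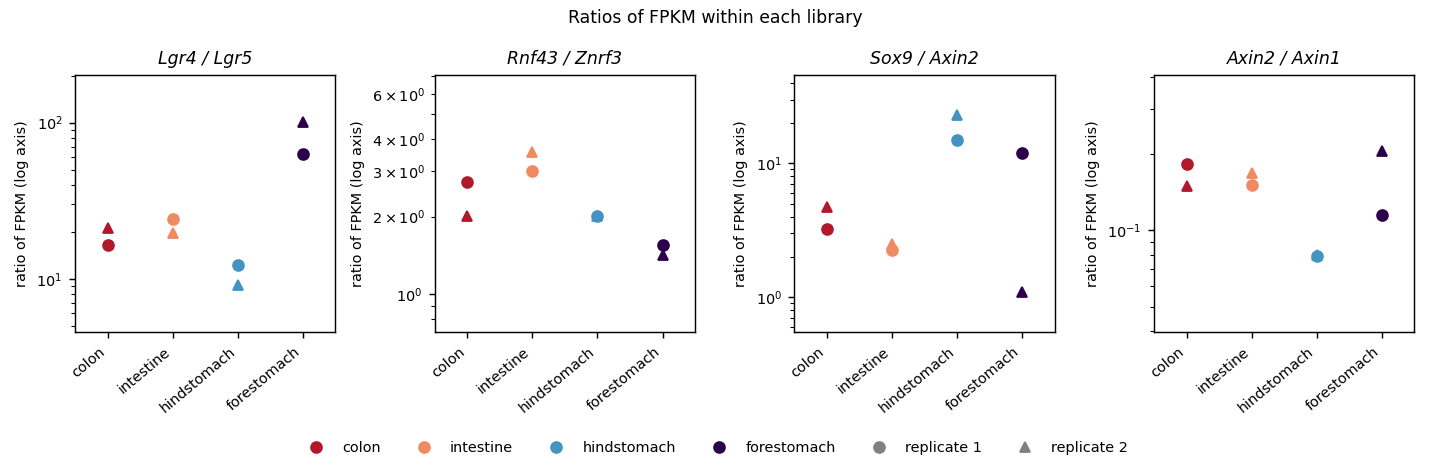
Ratios of FPKM within each library for 4 gene pairs, on log axes, with tissues from left to right as colon, intestine, hindstomach and forestomach and circles and triangles for replicates 1 and 2. The Lgr4 to Lgr5 ratio was highest in forestomach (62.9 and 102), the Axin2 to Axin1 ratio was lowest in hindstomach (0.0793 and 0.0800), and the Sox9 to Axin2 ratio was 12.03 and 1.09 in the 2 forestomach libraries.

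Of the stem cell genes, Ascl2, the basic helix-loop-helix factor that keeps intestinal stem cells, was level in 3 tissues and lower in forestomach. It was at 2.81 and 1.92 FPKM in colon, 2.81 and 2.35 FPKM in intestine, 3.41 and 2.66 FPKM in hindstomach, and 0.445 and 1.37 FPKM in forestomach. Colon, intestine and hindstomach overlapped one another, and each lay above both forestomach libraries. The differences from forestomach were 1.12 ± 0.31 for hindstomach (adjusted p = 0.0849), 0.95 ± 0.31 for intestine (adjusted p = 0.0822) and 0.85 ± 0.31 for colon (adjusted p = 0.12), and none was called. All 3 were called without forestomach replicate 2, at 1.48, 1.31 and 1.21 (adjusted p = 0.00915, 0.00957 and 0.0131), and none without the library labelled forestomach replicate 1. Their adjusted p-values over all alternatives ran from 0.00915 to 0.372, from 0.00957 to 0.339 and from 0.0131 to 0.62.

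Olfm4, a secreted glycoprotein of the crypt base in human intestine and of gastric glands, had the widest range of the tested members, 120-fold between libraries. It was at 57.2 and 7.71 FPKM in colon, 87.9 and 126.8 FPKM in intestine, 204 and 344 FPKM in hindstomach, and 2.88 and 12.6 FPKM in forestomach. Hindstomach lay above intestine and intestine above colon without overlap, while colon replicate 2 was below forestomach replicate 2. In hindstomach Olfm4 averaged 274 ± 98.9 FPKM (SD, n = 2), above 99.3% of all listed genes, and in forestomach 7.74 ± 6.87 FPKM, above 75.3%. It was higher in hindstomach than in forestomach by 5.20 ± 0.99 (adjusted p = 0.0391, limma) and in intestine than in forestomach by 3.88 ± 0.99 (adjusted p = 0.0408).

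These Olfm4 differences were large but narrowly past the threshold. The hindstomach call ended without hindstomach replicate 1 (5.57, adjusted p = 0.227), hindstomach replicate 2 (4.82, adjusted p = 0.227), intestine replicate 1 (5.20, adjusted p = 0.101) or intestine replicate 2 (5.20, adjusted p = 0.101). The intestine call ended without the library labelled forestomach replicate 1 (2.97, adjusted p = 0.0773), hindstomach replicate 1 or 2 (3.88, adjusted p = 0.0833 and 0.0834), intestine replicate 1 (4.14, adjusted p = 0.144) or intestine replicate 2 (3.61, adjusted p = 0.202). Both also ended under median-of-ratios scaling (4.82, adjusted p = 0.0698, and 3.82, adjusted p = 0.0502). All 18 alternatives of each kept the sign, between 3.91 and 6.10 for hindstomach and between 2.93 and 4.78 for intestine. Over them the adjusted p ran from 0.00977 to 0.227 and from 0.0156 to 0.202.

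Colon was the tissue in which Olfm4 was least settled. The colon pair differed 7.42-fold, and colon minus forestomach was 1.63 ± 0.99 (adjusted p = 0.291), colon minus intestine -2.24 ± 0.99 (adjusted p = 0.373) and colon minus hindstomach -3.56 ± 0.99 (adjusted p = 0.203). Colon replicate 2, the library low in Olfm4, was also lower than replicate 1 in the 7 intestinal epithelium markers (Cdx2, Cdx1, Vil1, Cdh17, Fabp1, Fabp2 and Alpi). They summed to 8782 and 2961 FPKM in colon, 11460 and 16420 FPKM in intestine, 2384 and 2430 FPKM in hindstomach, and 34.2 and 2.70 FPKM in forestomach, and 2 of the 7 were listed at 0 in forestomach replicate 2. Hindstomach, the tissue with the most Olfm4, had lower sums than either colon library. The part of intestinal cells in the Olfm4 values of colon or of any other tissue was not tested.

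Markers of Paneth cells, the crypt base neighbours of stem cells that appear after birth in mice, were also measured. The 5 markers (Lyz1, Defa24, Mmp7, Defa17 and Pla2g2a) summed to 15.0 and 6.62 FPKM in colon, 24.7 and 26.1 FPKM in intestine, 4.23 and 1.49 FPKM in hindstomach, and 1.15 and 0.451 FPKM in forestomach. Defa17, a defensin, was at 16.8 and 20.8 FPKM in intestine and listed at 0 in forestomach. The ratio of Olfm4 to Lgr5 was 20.9 and 3.54 in colon, 63.3 and 78.3 in intestine, 56.6 and 79.0 in hindstomach, and 8.48 and 41.4 in forestomach, so intestine and hindstomach shared a range that neither colon nor forestomach entered.

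Smoc2, a secreted calcium-binding matrix protein, had its lowest mean in intestine, while Lgr5, Ascl2 and Olfm4 had theirs in forestomach. It was at 14.8 and 34.0 FPKM in colon, 12.1 and 8.92 FPKM in intestine, 17.7 and 14.0 FPKM in hindstomach, and 12.3 and 19.8 FPKM in forestomach. The forestomach pair spanned the hindstomach pair, and only intestine and hindstomach among neighbours in the order of means (colon, forestomach, hindstomach, intestine) did not overlap. No comparison was called, the largest difference being colon minus intestine at 1.05 ± 0.43 (adjusted p = 0.353, limma). Colon replicate 2, where Smoc2 was highest, was also high in the 19 markers of mesenchyme and smooth muscle. These summed to 1021 and 2317 FPKM in colon, 528 and 108 FPKM in intestine, 307 and 488 FPKM in hindstomach, and 5225 and 127 FPKM in forestomach, and none of the 19 was listed at 0 in any library. The library labelled forestomach replicate 1 had the highest sum with 12.3 FPKM of Smoc2. The smooth muscle genes Tagln and Acta2 held 1338 and 1327 FPKM of that sum. By the median of the 19 markers, as log2(FPKM + 1), colon replicate 2 was highest, at 6.20 against 5.30 in the library labelled forestomach replicate 1. The part of these markers in the Smoc2 values was not tested.

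Sox9, the HMG-box factor of progenitor cells, was highest in hindstomach. It was at 11.7 and 15.5 FPKM in colon, 7.03 and 7.40 FPKM in intestine, 28.1 and 39.5 FPKM in hindstomach, and 15.1 and 5.43 FPKM in forestomach. Both hindstomach libraries lay above all 6 others, colon lay above intestine, and the forestomach pair spanned the values of colon replicate 1 and of both intestine libraries. Means were 13.6 ± 2.7 FPKM in colon, 7.22 ± 0.26 FPKM in intestine, 33.8 ± 8.03 FPKM in hindstomach and 10.3 ± 6.84 FPKM in forestomach (SD, n = 2 each). Transcripts of pancreas markers were present beside this difference: its 8 markers (among them Cpa1, Prss2 and Ptf1a) summed to 1466 and 439 FPKM in colon, 2304 and 398 FPKM in intestine, 3568 and 968 FPKM in hindstomach, and 36.7 and 1.90 FPKM in forestomach. At least 6 of the 8 reached 1 FPKM in every colon, intestine and hindstomach library, against 3 and 1 in forestomach, and Ptf1a was highest in hindstomach replicate 1 at 5.77 FPKM. Sox9 and Olfm4 were higher in hindstomach replicate 2, the hindstomach library with the lower pancreas sum, and the part of these transcripts in the Sox9 and Olfm4 differences was not tested. Intestine minus hindstomach was -2.06 ± 0.44 on the log2 scale and just missed the call (adjusted p = 0.0553, limma), beside a shift of -0.25 over all genes, and colon minus hindstomach was -1.25 ± 0.44 (adjusted p = 0.326).

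The spread behind these Sox9 tests includes the forestomach pair, which does not enter the difference. Without the library labelled forestomach replicate 1, Sox9 fell in intestine minus hindstomach (-2.06 ± 0.21, adjusted p = 0.0036) and in colon minus hindstomach (-1.25 ± 0.21, adjusted p = 0.0217). Without both forestomach libraries the same differences had adjusted p-values of 0.00355 and 0.0215. The sign held in all 19 alternatives, between -2.30 and -1.75 for intestine and between -1.49 and -1.01 for colon, and the adjusted p ran from 0.00355 to 0.343 and from 0.0166 to 0.956. Hindstomach minus forestomach was 1.75 ± 0.44 (adjusted p = 0.0713). It was called without the library labelled forestomach replicate 1 (2.42, adjusted p = 0.0023) and without forestomach replicate 2 (1.09, adjusted p = 0.0211), over a range of 0.0023 to 0.315. Colon minus forestomach was 0.51 ± 0.44 (adjusted p = 0.451), with 1.17 without the library labelled forestomach replicate 1 (adjusted p = 0.0194) and -0.15 without forestomach replicate 2 (adjusted p = 0.641).

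Hindstomach thus had the highest Sox9 and, among the tissues whose pairs agreed, the lowest Axin2. The ratio of Sox9 to Axin2 was 3.22 and 4.74 in colon, 2.24 and 2.48 in intestine, 14.9 and 23.1 in hindstomach, and 12.03 and 1.09 in forestomach. In bowel minus stomach, with all libraries, the member nearest to a call was Sox9 at -0.78 ± 0.31 (adjusted p = 0.162). With the library labelled forestomach replicate 1 left out, the call was Znrf3 (-1.09, adjusted p = 0.00152), and without forestomach replicate 2 it was Sox9 (-1.11, adjusted p = 0.00488), so no member was called in both. Over all alternatives the adjusted p ran from 0.000868 to 0.534 for Znrf3 and from 0.00351 to 0.408 for Sox9.

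**Figure D3:**
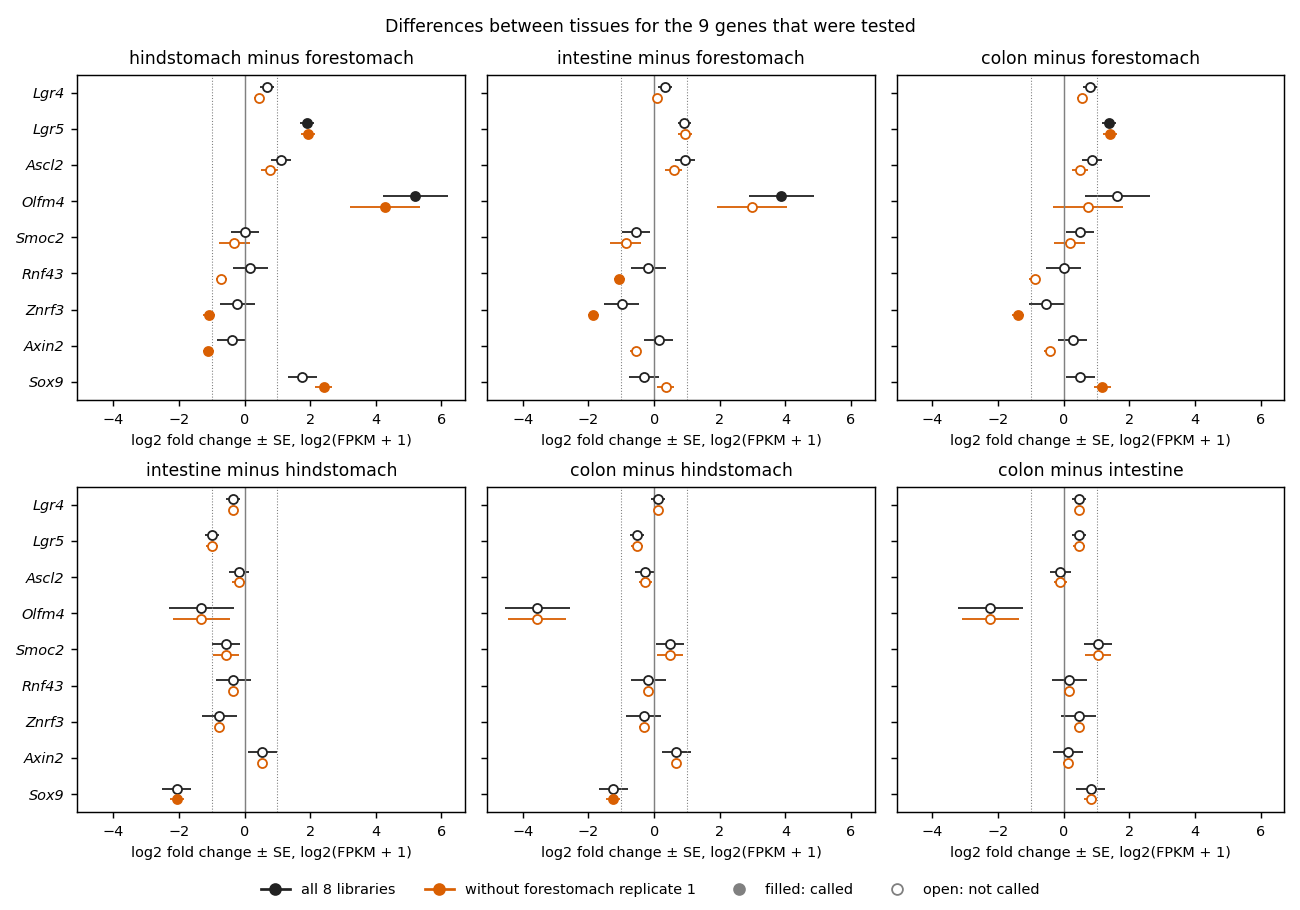
Log2 fold change with its standard error for the 9 tested genes in 6 comparisons, with all 8 libraries (black) and without the library labelled forestomach replicate 1 (orange). Filled points were called and dotted lines mark a 2-fold change. With all libraries the calls were Lgr5 in hindstomach minus forestomach and colon minus forestomach and Olfm4 in hindstomach minus forestomach and intestine minus forestomach.

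Beyond the members, the pathway was described by lists of genes. No R-spondin gene was called by limma in any comparison with all libraries (2 of 4 tested, 0 at an unadjusted p under 0.05). Rspo1 was at 5.34 and 8.35 FPKM in colon, 5.12 and 5.76 FPKM in intestine, 4.51 and 4.12 FPKM in hindstomach, and 11.7 and 0.860 FPKM in forestomach. Rspo3, which mesenchyme makes in the mouse gut, was highest at 7.12 FPKM in the library labelled forestomach replicate 1. In forestomach replicate 2 Rspo3 was at 0.0449 FPKM. It was at 1.035 and 3.36 FPKM in colon, 0.652 and 0.0698 FPKM in intestine, and 0.81 and 0.615 FPKM in hindstomach. The library labelled forestomach replicate 1 had the highest sum, though not the highest median, of the mesenchyme and smooth muscle markers. The part of these markers in the Rspo3 values was not tested. Rspo2 stayed at or under 0.940 FPKM and Rspo4 at or under 0.145 FPKM.

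Among 12 Frizzled and Lrp receptor genes, 11 were tested. Fzd3 fell in intestine minus forestomach (-2.17, adjusted p = 0.0282) and in bowel minus stomach (-1.52, adjusted p = 0.0342), and the co-receptor Lrp6 rose in colon minus forestomach (1.03, adjusted p = 0.0459). Leaving out each library in turn, the Fzd3 calls held in 4 and 3 of 8 fits and the Lrp6 call in 1 of 8, with adjusted p-values of up to 0.177, 0.138 and 0.207. In intestine minus forestomach the median of the receptor list was -0.62, beside 0.11 over all genes. Fzd5, a receptor of gut epithelium, had 17.8 and 12.6 FPKM in colon, 16.4 and 18.1 FPKM in intestine, 23.8 and 24.1 FPKM in hindstomach, and 9.85 and 2.86 FPKM in forestomach. Fzd10 had the opposite layout in forestomach replicate 2, at 24.7 FPKM against at most 1.26 FPKM in the other tissues and 0.900 FPKM in the library labelled forestomach replicate 1.

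Of 15 genes of the destruction and transcription complexes, all were tested and 2 were called with all libraries. Apc, the scaffold of the destruction complex, rose in hindstomach minus forestomach (1.16, adjusted p = 0.0373), with 10.4 and 10.3 FPKM in hindstomach against 3.40 and 4.89 FPKM in forestomach. The call held in 1 of the 8 fits that left out a library, with adjusted p-values of up to 0.249. Tcf7l1, a TCF factor that mainly represses, fell in intestine minus hindstomach (-2.76, adjusted p = 0.0288), with 1.48 and 0.528 FPKM in intestine against 10.9 and 13.5 FPKM in hindstomach, and the call held in 4 of 8 such fits, with adjusted p-values of up to 0.256. Ctnnb1, which encodes beta-catenin, ran from 218 to 260 FPKM in 7 libraries and stood at 103 FPKM in the library labelled forestomach replicate 1. Lgr4, Rnf43, Axin2, Ascl2 and Olfm4 also had their lowest values in that library.

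Of 16 other Wnt target and feedback genes, 11 were tested. Ephb2, the receptor that sorts crypt cells, rose against forestomach in hindstomach (1.47, adjusted p = 0.0346), intestine (1.20, adjusted p = 0.0262) and colon (1.85, adjusted p = 0.00981), as Lgr5 did in 2 of these comparisons. Its values were 5.33 and 6.80 FPKM in colon, 3.58 and 3.39 FPKM in intestine, 4.66 and 4.18 FPKM in hindstomach, and 0.592 and 1.40 FPKM in forestomach. The calls held in 2, 3 and 6 of 8 fits that left out a library, with adjusted p-values of up to 0.248, 0.162 and 0.0604. Ephb3, its relative, fell in intestine minus forestomach (-2.68, adjusted p = 0.0161) and in bowel minus stomach (-1.93, adjusted p = 0.0175), and Tnfrsf19 (Troy) fell in both as well (-2.41, adjusted p = 0.0224, and -1.51, adjusted p = 0.0388). Ephb3 was called in 6 and 3 of 8 such fits and Tnfrsf19 in 4 and 2, with adjusted p-values of up to 0.113, 0.0875, 0.153 and 0.149. The 2 Eph receptors thus had opposite signs in intestine minus forestomach.

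Several targets peaked in forestomach replicate 2 alone, as Rnf43, Znrf3 and Axin2 did. Apcdd1, a membrane inhibitor of Wnt signaling, was at 25.02 FPKM in it, against at most 2.63 FPKM in the other tissues and 2.94 FPKM in the library labelled forestomach replicate 1. Cd44 was at 63.4 FPKM, against 6.32 FPKM in that library and at most 8.45 FPKM elsewhere. Lef1 was at 0.775 FPKM and at most 0.0773 FPKM in all other libraries. Nkd1, a feedback inhibitor, had its highest value of 8.09 FPKM in the library labelled forestomach replicate 1, against 0.515 FPKM in forestomach replicate 2, with 5.09 FPKM in colon replicate 2.

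**Figure D4:**
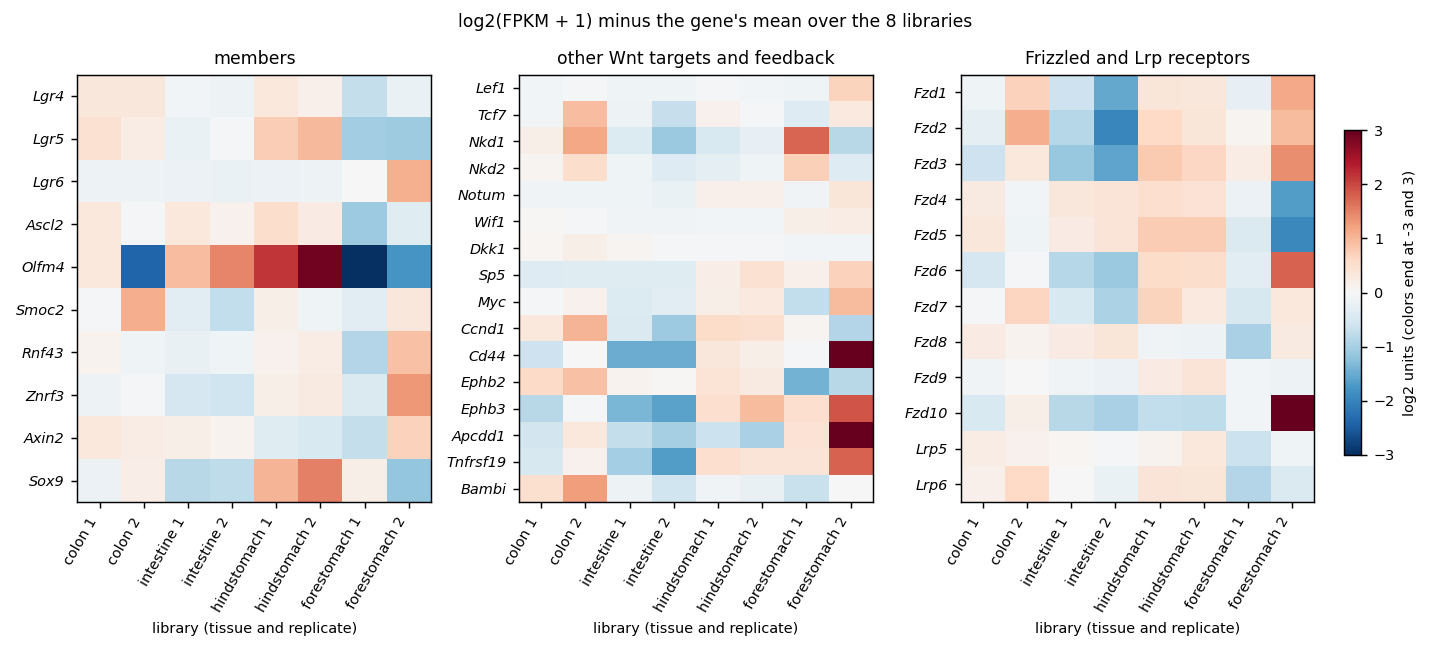
Log2(FPKM + 1) of the 10 genes, of 16 other Wnt targets and of 12 Frizzled and Lrp receptors in each of the 8 libraries, each minus the gene's own mean, with colors ending at -3 and 3. Forestomach replicate 2 stands out for Cd44, Apcdd1 and Fzd10 (63.4, 25.02 and 24.7 FPKM), and Olfm4 has the widest range of the tested members.

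The 12 other genes of crypt base columnar cells were all tested. Kcne3, a potassium channel subunit, rose in colon (3.96), intestine (3.18) and hindstomach (2.29) against forestomach (adjusted p = 0.000476, 0.000876 and 0.00678) and in colon minus hindstomach (1.67, adjusted p = 0.0315). It was at 22.4 and 29.3 FPKM in colon, 14.7 and 14.3 FPKM in intestine, 8.56 and 6.34 FPKM in hindstomach, and 0.862 and 0.574 FPKM in forestomach, an order unlike that of Lgr5, whose peak was hindstomach. The colon and intestine calls held in all 8 fits that left out a library, the hindstomach call in 6 (adjusted p up to 0.0811), and colon minus hindstomach in 2 (adjusted p up to 0.315). Soat1, a cholesterol esterifying enzyme, also rose in all 3 tissues (1.64, 1.97 and 1.40 for colon, intestine and hindstomach, adjusted p = 0.00728, 0.00297 and 0.0239), and these calls held in 7, 8 and 2 of 8 such fits, with adjusted p up to 0.0638, 0.0429 and 0.212. Phgdh, a serine synthesis enzyme, rose in intestine minus forestomach (2.37, adjusted p = 0.0441), in 2 of 8 such fits (adjusted p up to 0.195). All 3 rose in bowel minus stomach, at 2.42 for Kcne3, 1.11 for Soat1 and 1.77 for Phgdh (adjusted p = 0.000705, 0.00659 and 0.044), in 8, 6 and 2 of 8 such fits, with adjusted p up to 0.00938, 0.0511 and 0.166. Slc12a2, Cdca7, Rgmb, Aqp4, Msi1, Cdk6, Mex3a, Prom1 and Rgcc were called in no comparison with all libraries.

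Genes tied to reserve, reviving or fetal stem cells moved in both directions. Clu, a marker of reviving stem cells in injured mouse intestine, had 9.81 and 9.62 FPKM in colon, 16.6 and 3.52 FPKM in intestine, 578 and 721 FPKM in hindstomach, and 713 and 93.6 FPKM in forestomach. It fell in intestine minus forestomach (-4.87, adjusted p = 0.0224), colon minus forestomach (-4.60, adjusted p = 0.0364), intestine minus hindstomach (-6.18, adjusted p = 0.0301) and bowel minus stomach (-5.39, adjusted p = 0.00624). The last call held in all 8 fits that left out a library and the others in 2 of 8 each, with adjusted p up to 0.138, 0.165 and 0.235. Tert, the telomerase subunit, went the other way, with 13.2 and 4.74 FPKM in colon, 14.1 and 17.6 FPKM in intestine, 3.04 and 3.56 FPKM in hindstomach, and 0.188 and 0.953 FPKM in forestomach, and rose in intestine and colon against forestomach and in bowel minus stomach (3.46, 2.57 and 2.27, adjusted p = 0.00598, 0.0216 and 0.00819). Its calls held in 7, 3 and 8 of 8 such fits, with adjusted p up to 0.0591, 0.0828 and 0.0491. Lrig1 fell in intestine minus hindstomach (-1.14, adjusted p = 0.0402), in 2 of 8 such fits (adjusted p up to 0.355). Of 6 fetal progenitor genes, Gja1 and Anxa1 fell in intestine minus forestomach (-4.78 and -5.51, adjusted p = 0.0311 and 0.0314), in 2 of 8 such fits each (adjusted p up to 0.18 and 0.172).

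Of 15 paralogs of the members, 8 were tested. The related hormone receptor gene Fshr was listed at 0 in all libraries, and Lhcgr, Tshr, Rxfp1 and Rxfp2 had at most 0.114 FPKM. Znrf2 was at 4.73 to 9.43 FPKM and Znrf1 at 2.27 to 10.8 FPKM. In every library Znrf2 was higher than Znrf3 except in forestomach replicate 2, where it had 8.16 FPKM beside 8.43 FPKM.

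Likeness of pattern was measured as the root mean square difference between centred log2(FPKM + 1) profiles over the 8 libraries, a description without a test. Among members, the pairs most alike were Lgr4 and Ascl2 (0.28), Rnf43 and Znrf3 (0.31), Rnf43 and Axin2 (0.37) and Lgr5 and Ascl2 (0.43). Olfm4 was 1.70 or more from every other member. Of all tested genes, Zfp608 and Slc35a3 were nearest to Lgr5 (0.21 each), Lrrc31 and Galnt4 to Sox9 (0.20 and 0.23), and Reg1 and Nkx6-3 to Olfm4 (0.71 and 0.76). Nkx6-3, a homeobox factor, had 3.12 and 0.104 FPKM in colon, 3.71 and 4.96 FPKM in intestine, 24.6 and 24.7 FPKM in hindstomach, and 0.0158 and 0 FPKM in forestomach. Like Olfm4, it was lower in colon replicate 2 than in colon replicate 1, though not by the same factor. Tcf7, a TCF factor from the list of other targets, was the second nearest to Smoc2 after Nin (0.098 and 0.095). The nearest genes were Msh3 and Nhlrc2 for Lgr4, Mrps30 and C1qbp for Ascl2, Dhx34 and Phactr4 for Rnf43, Sh3bp5l and Bod1 for Znrf3, and Rb1 and Natd1 for Axin2, at 0.072 to 0.12. Flat profiles lie close to many genes, so the small values of the last group are read beside medians of 0.44 to 0.70 over all genes.

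**Figure D5:**
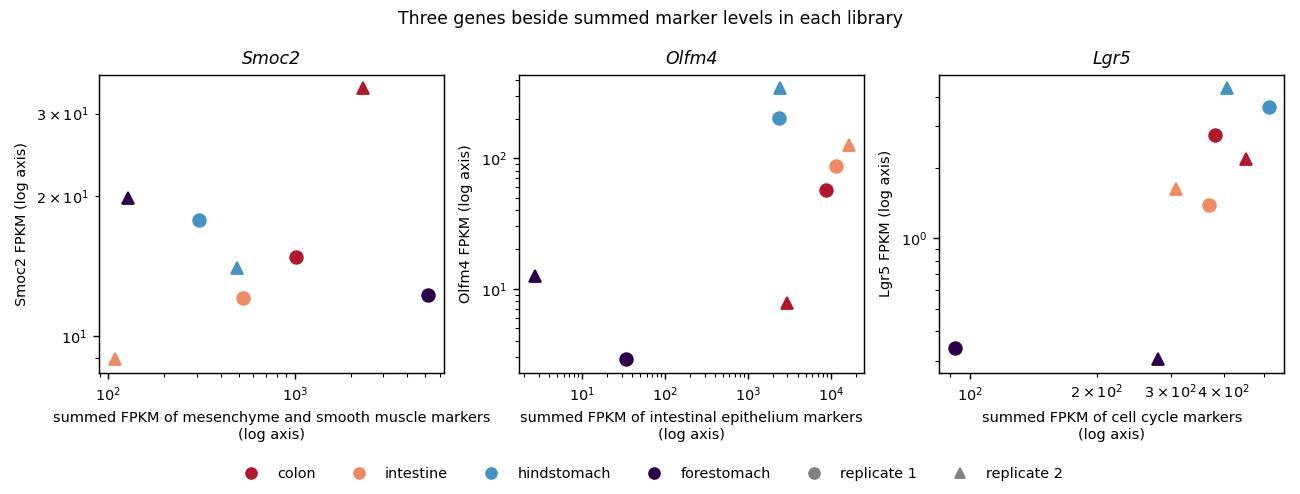
FPKM of Smoc2, Olfm4 and Lgr5 in each library against the summed FPKM of mesenchyme and smooth muscle, intestinal epithelium and cell cycle markers, all on log axes, with colors for tissues and circles and triangles for replicates 1 and 2. Colon replicate 2 has the highest Smoc2 (34.0 FPKM), and the forestomach libraries hold 92.4 and 280.3 FPKM of cell cycle markers at nearly the same Lgr5 level.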

How the data were processed

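Poly(A) RNA of E16.5 gut epithelium was sequenced in 8 libraries, 2 per tissue. The authors deposited FPKM in 1 table of 23393 symbols. STAR 2.4.2a and mm10 (GRCm38) were used, per the submitters' processing notes. The sources used here do not give the program behind FPKM, its annotation or its strand setting. Another 4 columns of the table were not used. Because FPKM is relative to a library's total, very abundant genes in 1 library push its other genes down. The sources used here give no read depth, and no interval for counting error was derived.

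Values were analyzed as log2(FPKM + 1), which understates changes of low genes, for the 12894 genes that reached 1 FPKM in 2 or more libraries. limma 3.58.1 in R 4.3.3 fitted 4 tissue means (eBayes with a mean-variance trend) and made 7 comparisons, with p-values adjusted over all tested genes by Benjamini-Hochberg. Errors of log2 fold changes are standard errors. The fit was also run on simulated data that gave every tissue the same spread, unlike the forestomach pair here. The outcome of that run is not reported here. Whether libraries with the same replicate number belong together is not in the labels. The correlations of their deviations between tissues ran from -0.578 to 0.27. With 2 libraries per tissue these cannot decide it, and the main fit used no pairing. Loci come from GENCODE M21 and promoters from RefSeq.

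The members and gene lists were chosen with earlier results of these data known. The members, called list genes (up to 4 per list and comparison) and the 2 genes most like each member in pattern were named. Values of Fzd5, Fzd10, Apcdd1, Cd44, Lef1, Nkd1, Ctnnb1, Rspo1, Rspo3 and the paralogs, and the motifs, were picked after their values were seen. A result of a list gene is not reported here. A pseudocount of 0.1, no filter, median-of-ratios and quantile scaling, no variance trend, no fold rule, fits to the compared tissues alone, a block for the replicate number and fits lacking 1 library were tried. Fits with another scaling and 1 forestomach library, or without both, were added after seeing the data.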

Additional observations from a re-analysis of the deposited data

How the results depend on the processing

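With all libraries 1 member was called in colon minus forestomach (11.6% of all genes) and 1 in intestine minus forestomach (17.1%). There were 2 in hindstomach minus forestomach (5.59%) and 0 in each other comparison (0.38% to 10.6%). Leaving out 1 library at a time gave 0 to 3, 0 to 2 and 0 to 5 members for these comparisons, 0 to 1 for intestine minus hindstomach, colon minus hindstomach and bowel minus stomach, and 0 throughout for colon minus intestine. In hindstomach minus forestomach the count was 1 with no filter, with median-of-ratios scaling and with a replicate block, and 0 with quantile normalization and with only the tissues compared. In intestine minus forestomach it was 2 with a pseudocount of 0.1 and with adjusted p only, and 0 with no filter, either scaling, only the tissues compared or a replicate block. In colon minus forestomach it was 0 with quantile normalization and with only the tissues compared. Intestine minus hindstomach gave 2 (Sox9 and Olfm4) with only the tissues compared. Median-of-ratios scaling without the library labelled forestomach replicate 1 gave 3, 3 and 5 members for colon, intestine and hindstomach against forestomach, and without forestomach replicate 2 it gave 1, 3 and 3. Both gave 1 each for intestine minus hindstomach, colon minus hindstomach and bowel minus stomach, and without both forestomach libraries the first 2 of these gave 1 each. Dropping the mean-variance trend left all member counts as they were. Counts over all genes also moved across these settings, so each member count is read beside the ranges over all genes given below. The replicate block ended both Olfm4 calls (adjusted p = 0.0804 and 0.073, limma) and neither Lgr5 call. Whether the replicate numbers pair the libraries is not known.

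Against forestomach replicate 2 alone, that is without the library labelled forestomach replicate 1, calls arose for Znrf3 (-1.08) and Axin2 (-1.10) in hindstomach minus forestomach, Rnf43 in intestine minus forestomach (-1.06), and Znrf3 (-1.40) and Sox9 (1.17) in colon minus forestomach. Signs turned without forestomach replicate 2 for Znrf3 (0.65) and Axin2 (0.31) in hindstomach minus forestomach, Rnf43 in intestine minus forestomach (0.70), and Znrf3 (0.34) and Sox9 (-0.15) in colon minus forestomach. With median-of-ratios scaling as well, the values were 0.34 for Znrf3, 0.041 for Axin2, 0.61 for Rnf43 and, in colon minus forestomach, -0.66 for Sox9. Other calls that arose without the library labelled forestomach replicate 1 did not turn sign in any alternative fit. These were Znrf3 in intestine minus forestomach and bowel minus stomach, and Sox9 in hindstomach minus forestomach, intestine minus hindstomach and colon minus hindstomach. Intestine minus hindstomach and colon minus hindstomach hold no forestomach library. Leaving out that library changed the spread used for Sox9 there and not its difference.

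Over all genes, main and extreme counts were 1497 (142 to 3552) for colon minus forestomach, 2201 (513 to 4005) for intestine minus forestomach, 721 (75 to 3126) for hindstomach minus forestomach, 648 (0 to 2296) for intestine minus hindstomach, 194 (0 to 949) for colon minus hindstomach, 49 (0 to 317) for colon minus intestine and 1365 (679 to 2198) for bowel minus stomach. Median-of-ratios scaling changed higher against lower calls to 223 and 231 from 549 and 172 in hindstomach minus forestomach, to 572 and 427 from 1186 and 311 in colon minus forestomach, and to 460 and 241 from 329 and 319 in intestine minus hindstomach. Quantile normalization gave 141 and 93 in colon minus hindstomach, beside 138 and 56.

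With 2 libraries per tissue, no read counts and 1 forestomach library that stands apart, calls near the threshold changed with the library left out. The cause of that library's profile was not tested.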
